A study of Homo sapiens with 33 samples.

Results

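The transcripts of the replicative DNA polymerases, the sliding clamp PCNA and its loader were examined in HepG2, an established human liver cancer line. The 10 genes were taken as a named list, PCNA, RFC2, RFC3, RFC4, POLA1, PRIM1, POLD1, POLD3, POLE and POLE2, out of 78932 gene identifiers, and all 10 passed the filter on low values (a mean of at least 1 TPM, the length-corrected share of transcripts on a scale that sums to 1000000). The labels name 6 fractions sorted along the cell cycle, G1, S1 to S4, and G2. Each is represented by 2 RNA libraries, numbered replicate 2 and replicate 3, and unsorted bulk cells by 3. Every RNA library is labelled as nuclear RNA. No treatment is named for any group, although the DNA libraries of the sorted cells went through BrdU immunoprecipitation, and the labels do not say whether bulk cells had received BrdU. Sorted libraries were made with the SMARTer Stranded Total RNA kit for ultra-low inputs, and bulk libraries with TruSeq Stranded mRNA from RNA isolated with RNeasy Plus, per the labels' protocols. The kit and the kind of RNA selected therefore differed along with sorting and cannot be told apart from it. The 18 Repli-seq samples among the 33 were not analysed here. Nothing in the labels says that replicates came from separate cultures. The p-values therefore speak only to how far these libraries spread, and that spread may be technical.

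At a replication fork, DNA polymerase alpha with primase (POLA1 is the catalytic subunit of the polymerase, PRIM1 that of the primase) lays short RNA-DNA primers. Replication factor C, of which RFC2, RFC3 and RFC4 are small subunits, opens the ring-shaped clamp PCNA and closes it around the primed DNA. PCNA then holds polymerase delta (POLD1 catalytic, POLD3 accessory), which makes most of the lagging strand, while polymerase epsilon (POLE catalytic, POLE2 accessory) makes most of the leading strand. Many genes of this machinery are known targets of the E2F transcription factors, which are active around the entry into S phase. In bulk or sorted material, fewer cells that make a transcript and less transcript per cell cannot be told apart.

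Since the E2F link is the usual reason to follow these genes through the cycle, the 250 bases before the RefSeq start of each gene (GRCh38.p14) were searched for E2F words. The words searched were TTTCCCGC, TTTGGCGC, TTTCGCGC and TTTGCCGC, on both strands. A promoter entry was matched for 9 of the 10 genes, POLD3 being the exception, and 4 of the 9 held a word. Of 13819 protein-coding promoters of the same length, 3.76% did. The word lay 137 bases before the start in POLA1, 59 in PCNA, 55 in RFC3 and 18 in POLE, counted to its first base in the direction of the gene. The stretches below show the word in capitals with its flanks, read 5′ to 3′ in the direction of each gene; in all 4 it reads as the reverse complement of a listed word, since it sits on the opposite strand.
PCNA: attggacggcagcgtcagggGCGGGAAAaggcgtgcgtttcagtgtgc
RFC3: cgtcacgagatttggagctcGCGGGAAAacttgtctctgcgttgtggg
POLA1: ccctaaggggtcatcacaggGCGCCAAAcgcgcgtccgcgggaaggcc
POLE: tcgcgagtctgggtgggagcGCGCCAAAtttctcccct

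These stretches cover chr20:5126654-5126701 (minus strand) for PCNA, chr13:33818074-33818121 (plus strand) for RFC3, chrX:24693761-24693808 (plus strand) for POLA1 and chr12:132687343-132687380 (minus strand) for POLE. PCNA and RFC3 shared the same 8 letters, and POLA1 and POLE shared another set. TTTGAA, the core of the CHR element known from genes of late G2 and mitosis, was found in 0 of the 9 promoters and in 11.0% of all. CCAAT was found in 4 of the 9 (PCNA, POLA1, POLE, PRIM1) and in 35.2% of all, and GGGCGG, the word of SP-type GC boxes, in 7 of the 9 and in 56.0% of all. In PCNA a GGGCGG word overlapped the E2F word. These matches describe letters and not binding.

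Depth was worked out from the steps in the deposited values. The sorted libraries held 6129005 to 18485240 reads on genes, and the bulk libraries 22340963 to 24423744. Protein-coding genes made up only 11.2% to 15.5% of the TPM in the sorted libraries, against 76.7% to 77.6% in bulk, so a TPM value is not on the same footing in both. Ranges and comparisons are therefore also given after the protein-coding genes alone were rescaled to 1000000 per library, here called rescaled values. All 6 hepatocyte markers were detected in every library, with ALB, the plasma protein albumin, at no less than 1499.8 TPM. Fibroblast collagens and endothelial markers reached at most 1.37 TPM. Of the leukocyte markers the pan-leukocyte gene PTPRC reached at most 0.0440 TPM, while LYZ, the lysozyme gene, lay between 174 and 1962 TPM.

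PCNA had the highest level of the 10 genes in both kinds of library. Its gene spans chr20:5114953-5126622. Replicate 2 gave 49.3 TPM in G1, 47.7 in S1, 47.2 in S2, 40.5 in S3, 32.7 in S4 and 32.9 in G2. Replicate 3 gave 115 TPM in G1, 114 in S1, 109 in S2, 66.9 in S3, 89.6 in S4 and 119 in G2. Every replicate 3 value lay above every replicate 2 value, so that 0 of the 15 pairs of fractions were free of overlap, where the median gene tested had 4. The bulk libraries gave 1006, 1005 and 974 TPM, all above the highest sorted value. Rescaled values ran from 285 to 1022 in the sorted libraries and from 1263 to 1310 in bulk, again without overlap. Between 321 and 2146 reads stood behind each sorted value and between 7644 and 8579 behind each bulk value.

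**Figure D1:**
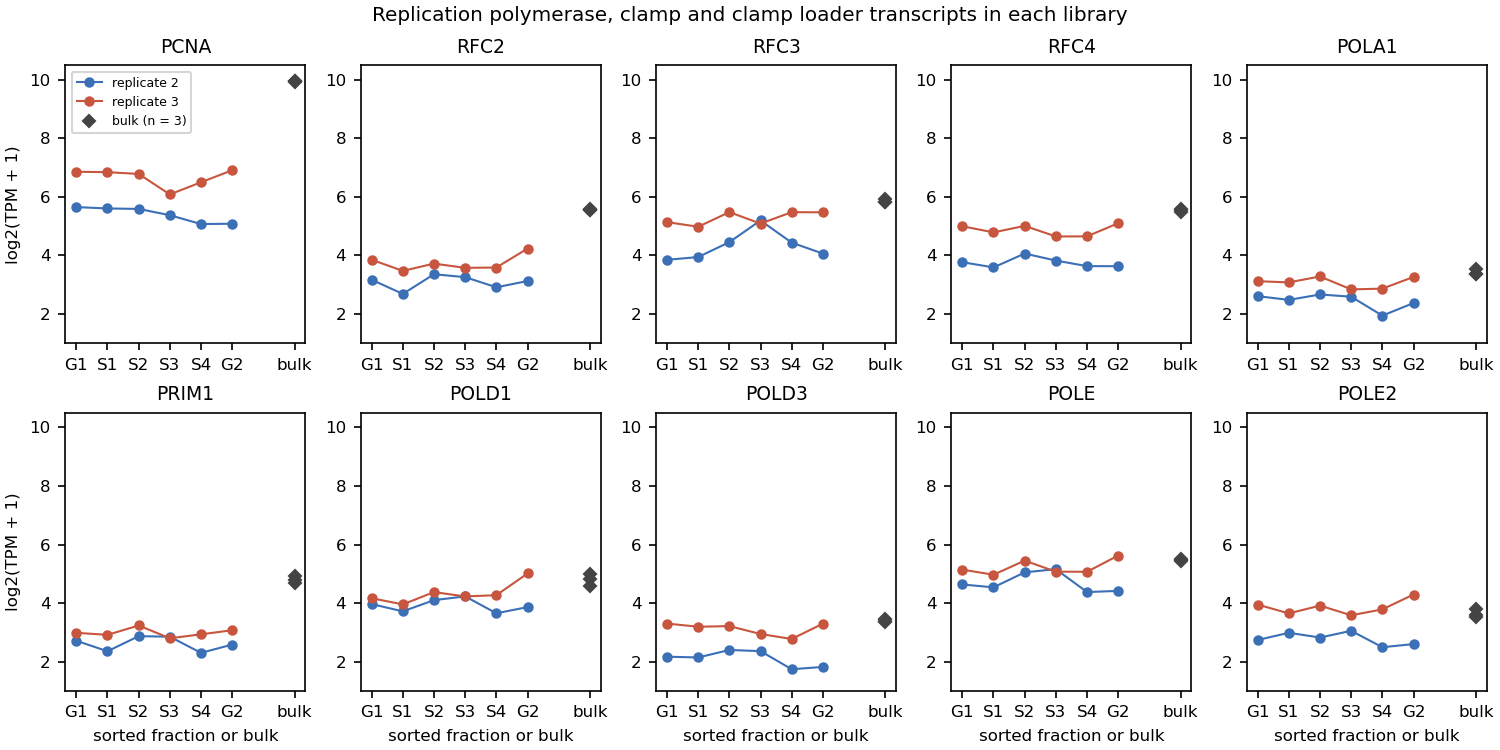
Level of each gene, log2(TPM + 1), in the 6 sorted fractions (lines join the libraries of the same replicate number) and in the 3 bulk libraries (diamonds). Replicate 3 lies above replicate 2 in all 6 fractions for PCNA, RFC2, RFC4, POLA1, POLD3 and POLE2, and PCNA stands furthest below its bulk level.

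Of the clamp loader subunits, RFC3 (chr13:33818149-33977377) was the most abundant in the sorted libraries. Its values in replicate 2 were 13.4 TPM in G1, 14.4 in S1, 20.9 in S2, 35.6 in S3, 20.7 in S4 and 15.7 in G2. In replicate 3 they were 34.3, 30.6, 43.7, 33.1, 43.6 and 43.5 TPM in the same order. S3 was the one fraction in which replicate 2 was the higher library, and it gave the highest value of replicate 2 but the second lowest of replicate 3. Bulk gave 55.3, 60.4 and 55.9 TPM, above all 12 sorted libraries. RFC4 (chr3:186789900-186806482) ranged from 11.1 to 33.3 TPM with a median of 19.9 over the sorted libraries, and bulk gave 46.4, 46.6 and 44.0 TPM. RFC2 (chr7:74231502-74254399) ranged from 5.43 to 17.8 TPM with a median of 9.68, against 46.4, 45.7 and 46.8 TPM in bulk. The sorted and bulk ranges of RFC4 and RFC2 did not overlap either. On rescaled values the order turned for RFC3 and RFC4. RFC3 ran from 86.7 to 338 in the sorted libraries and from 71.2 to 78.8 in bulk, and RFC4 from 81.6 to 245 and from 57.1 to 60.8. RFC2 overlapped there, at 46.5 to 115 against 59.6 to 60.7.

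The leading-strand polymerase gene POLE (chr12:132623762-132687342) had the highest level of the 6 polymerase and primase genes among the 10. Replicate 2 gave 23.8 TPM in G1, 22.2 in S1, 32.1 in S2, 34.7 in S3, 19.8 in S4 and 20.3 in G2, and replicate 3 gave 34.3, 30.3, 42.7, 32.7, 32.5 and 48.3 TPM. Its libraries did not overlap in 3 of the 15 pairs of fractions on TPM and in 2 on rescaled values, where the median gene had 4 and 3. The bulk values of 44.8, 43.3 and 42.6 TPM fell inside the sorted range, because G2 replicate 3 exceeded them. Its accessory subunit POLE2 (chr14:49643555-49688214) ranged from 4.62 to 18.6 TPM with a median of 9.13, and bulk gave 13.0, 11.0 and 10.6 TPM, again inside the sorted range. On rescaled values both genes lay above bulk in every sorted library, POLE at 154 to 331 against 55.2 to 57.7 and POLE2 at 36.6 to 120 against 13.7 to 16.8.

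For polymerase delta, POLD1 (chr19:50384323-50418018) gave 14.6 TPM in G1, 12.1 in S1, 16.1 in S2, 17.7 in S3, 11.6 in S4 and 13.5 in G2 in replicate 2. Replicate 3 gave 16.9, 14.5, 19.7, 17.7, 18.3 and 31.2 TPM. The 2 libraries of a fraction lay closer together for POLD1, on log2(TPM + 1), than for any other of the 10 genes in every fraction except G2. Bulk gave 31.0, 22.9 and 27.4 TPM, which G2 replicate 3 exceeded. POLD3 (chr11:74592582-74669341) was the least abundant of the 10 in the sorted libraries, from 2.34 to 8.84 TPM with a median of 5.05, against 9.33, 9.38 and 9.85 TPM in bulk. On rescaled values POLD1 ran from 94.3 to 202 in the sorted libraries and from 29.9 to 39.9 in bulk. POLD3 ran from 20.8 to 72.7 and reached at most 12.8 in bulk, so that both genes were higher in every sorted library on that scale.

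The priming enzyme was represented by POLA1 (chrX:24693918-24996986), with 2.85 to 8.72 TPM and a median of 5.76, and by PRIM1 (chr12:56731580-56752323), with 3.92 to 8.40 TPM and a median of 6.26. In bulk POLA1 gave 9.36, 10.6 and 9.26 TPM and PRIM1 24.9, 29.4 and 26.7 TPM. Both genes had all 12 sorted libraries below all 3 bulk libraries on TPM. On rescaled values POLA1 lay above bulk in all of them, at 25.4 to 67.6 against at most 13.8, and PRIM1 overlapped, at 34.9 to 65.1 against 32.1 to 38.3. By their sorted means the order of the 10 genes was PCNA, POLE, RFC3, RFC4, POLD1, RFC2, POLE2, PRIM1, POLA1 and POLD3. The sorted ranges of all neighbours in this order overlapped.

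For most of the 10 genes the sorted libraries differed more by replicate number than by fraction. On TPM the median difference between the replicates exceeded the range of the 6 fraction means for 7 of them. The exceptions were POLD1, POLE and PRIM1. On rescaled values it did so for 9, all but POLD1. How many of all genes behaved this way was not computed, so these counts describe the 10 genes alone. On TPM, replicate 3 exceeded replicate 2 in each of the 6 fractions for 6 of the 10 genes, and for 19.8% of all 17022 genes tested. On rescaled values it did so for all 10, and for 30.2% of 13490 genes. The median difference between the replicates on rescaled values, in log2 units, was 1.28 for PCNA, 1.20 for POLE2 and 1.15 for POLD3, and 0.35 for POLD1, the smallest. The lowest library was S4 replicate 2 for 7 of the genes on TPM, and the highest was G2 replicate 3 for 6. Protein-coding genes made up 11.2% of the TPM in S4 replicate 2 and 15.4% in G2 replicate 3. On rescaled values S4 was lowest within replicate 2 for 3 of the genes, and G2 highest within replicate 3 for 3. None of these counts was taken over all genes. Other genes differed between the replicates as well. The summed rescaled level of the 6 hepatocyte markers was 58083 to 76877 in replicate 2 and 26583 to 48681 in replicate 3, and that of 5 G1/S reference genes (CCNE1, CCNE2, CDC6, MCM5, RRM2) was 320 to 505 and 577 to 911. The part of either in the difference was not tested.

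**Figure D2:**
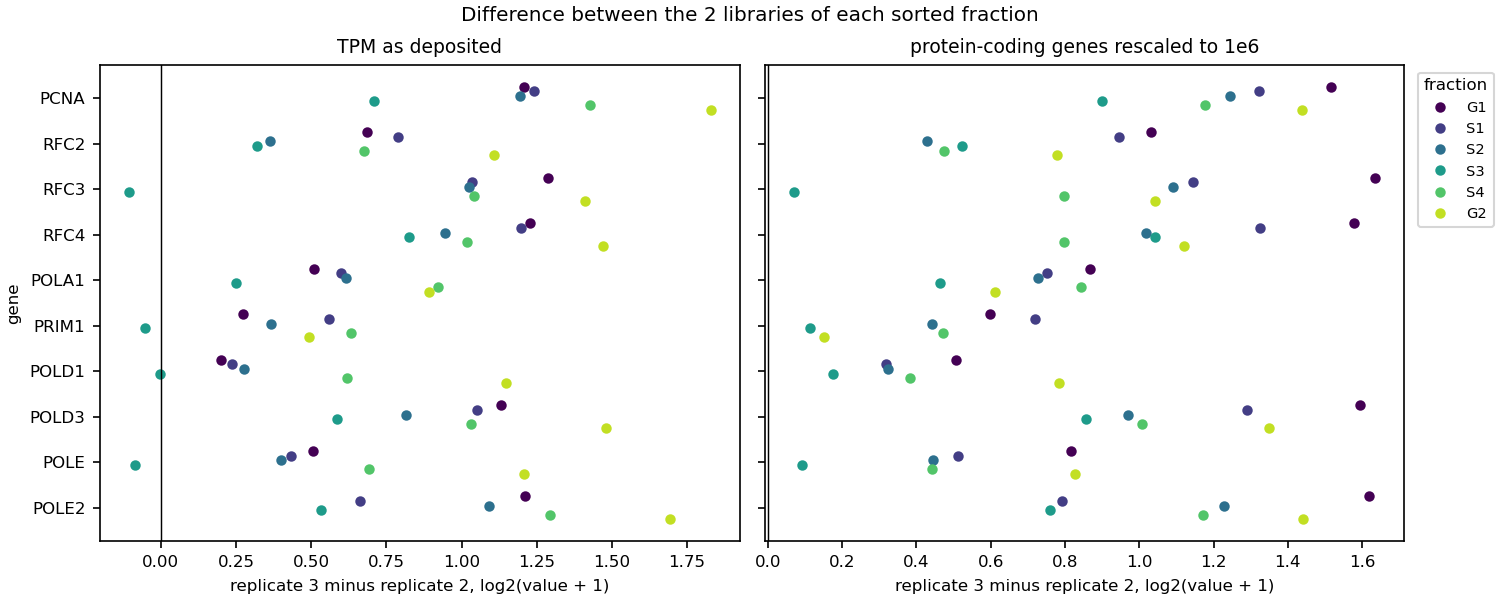
Replicate 3 minus replicate 2 for each gene in each sorted fraction (colours), in log2(value + 1), for TPM as deposited (left) and rescaled values (right). On the right every point lies above 0, and the S3 point is the lowest for 8 of the 10 genes.

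Whether these transcripts follow the cell cycle was asked first as any difference among the 6 fractions. None of the 10 genes passed (limma, Benjamini-Hochberg adjusted p under 0.05), where 0.0176% of 17022 genes did. The highest fraction mean exceeded the lowest by 0.31 log2 units for POLE2, the smallest such range, and by 0.68 for RFC3, the largest. Of 6 G2/M reference genes (CCNB1, PLK1, CDC20, TOP2A, AURKB, CENPA) 0 passed as well, although their ranges had a median of 2.20. The 5 G1/S reference genes also gave 0, with a median range of 1.17. Not passing therefore does not show that a gene is constant through the cycle. In the 5 directed comparisons below, again 0 of the 10 passed and none had an unadjusted p under 0.05. Over all genes the unadjusted test gave between 289 and 891 genes in each of them.

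Entry into S phase was addressed by S1 against G1. The 10 differences had a median of -0.11 log2 units beside -0.29 over all genes tested, of which 0.0117% passed. PCNA differed by -0.03 ± 0.76 (SE), with a 95% interval of -1.74 to 1.68 (limma, adjusted p = 0.995), and RFC2 was the lowest at -0.43 ± 0.45, with an interval of -1.43 to 0.57. On TPM all 10 differences were below 0, as were 80.6% of those of all genes. On rescaled values 9 of the 10 were above 0, beside 40.8% of all genes, and PCNA differed by 0.26, with an interval of -1.38 to 1.90. Within replicate 2 the rescaled median was 0.28 with 8 genes above 0, and within replicate 3 it was 0.01 with 6. Of the 10 genes 5 were above 0 in both. The share of all genes within each replicate was not computed. The sign of the fitted differences thus depended on the scale. The median of all genes moved as well, from -0.29 on TPM to -0.06 on rescaled values. On both scales 9 of the 10 genes lay above it. The intervals given here contained 0, and those of PCNA also contained a doubling and a halving.

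For S, the mean of S1 to S4, against G1, the median over the 10 genes was -0.09 beside -0.20 over all genes, of which 0% passed. RFC3 had the highest difference at 0.39 ± 0.50 (SE), with an interval of -0.73 to 1.51. PCNA had the lowest at -0.27 ± 0.60, with an interval of -1.62 to 1.08. On rescaled values the median turned to 0.09 beside -0.04 over all genes, with RFC3 at 0.59 ± 0.49 and PCNA at -0.09 ± 0.58. On both scales 9 of the 10 genes lay above the median of all genes. S exceeded G1 in both replicates for 1 of the 10 genes on TPM, RFC3, and was below it in both for 5, beside 12.3% and 49.7% of all genes. On rescaled values it was above for 4, RFC3, POLD1, POLE and PRIM1, and below for 0, beside 24.6% and 34.9%. The replicates differed there. S exceeded G1 for 10 of the 10 genes in replicate 2 and for 4 in replicate 3, with medians of 0.30 and -0.13. The share of all genes within each replicate was not computed.

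The slope over S1 to S4, in log2 units per fraction, asked whether levels moved as S phase went on. It was -0.18 ± 0.24 (SE) for PCNA, -0.14 ± 0.14 for POLA1, -0.14 ± 0.20 for POLD3 and 0.17 ± 0.20 for RFC3. The median was -0.04 over the 10 genes and 0.04 over all genes, of which 0% passed. On rescaled values PCNA had a slope of -0.20 ± 0.23. With a term for the replicate number added on that scale, which the labels do not tie to a shared culture or day, its slope was -0.20 ± 0.044 (SE) and passed (limma, adjusted p = 0.0446). It was 1 of the 10 to pass there, beside 1.85% of all genes. With that term on TPM 0 of the 10 passed. The slope was below 0 in both replicates for 6 of the 10 genes on TPM and for 6 on rescaled values, beside 18.5% and 25.0% of all genes.

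For G2 against G1 the differences ran from -0.26 ± 0.76 (SE) for PCNA to 0.37 ± 0.38 for POLD1, and 0.00587% of all genes passed. For G2 against S they ran from -0.11 ± 0.50 for RFC3 to 0.37 ± 0.30 for POLD1, and 0.00587% of all genes passed. On TPM the POLD1 values rested on G2 replicate 3, at 31.2 TPM, since G2 replicate 2 gave 13.5 TPM. On rescaled values PCNA differed by -0.20 ± 0.73 and POLD1 by 0.45 ± 0.30 for G2 against G1. Within replicates 2 and 3 POLD1 then differed by 0.31 and 0.59 from G1, and by 0.02 and 0.50 from S. For G2 against S the median over the 10 genes was 0.07 on TPM and -0.05 on rescaled values. The direction within each replicate turned with the scale. G2 exceeded G1 on TPM for 1 of the 10 genes in replicate 2 and for 9 in replicate 3, beside 18.1% and 73.8% of all genes. On rescaled values it did for 8 and for 5, beside 43.0% and 50.3%.

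**Figure D3:**
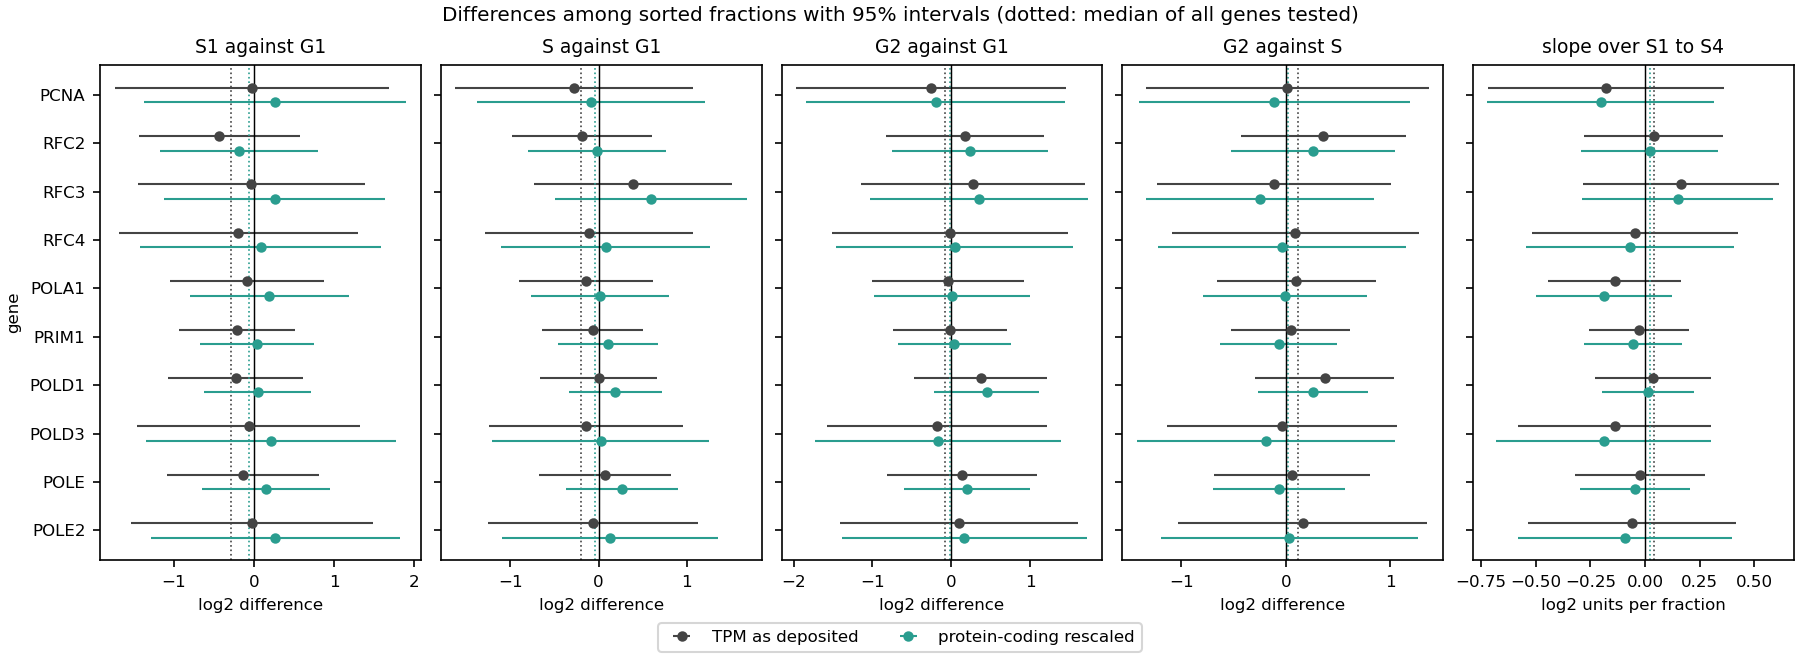
Differences among the sorted fractions for each gene with 95% intervals, in log2 units (slope: per fraction), on TPM as deposited (grey) and on rescaled values (green), with the median of all genes tested as a dotted line. Every interval crosses 0, and RFC3 and PCNA lie furthest apart for S against G1.

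The fraction with the highest value was the same in both replicates for 2 of the 10 genes on TPM, POLA1 and PRIM1, both in S2. Of all genes 14.2% had the same highest fraction. On rescaled values it was again 2 of 10, now POLA1 in S2 and PCNA in S1, beside 23.6% of all genes. PCNA on that scale gave 408 in S1 of replicate 2 with 285 to 357 in the other fractions, and 1022 in S1 of replicate 3 with 584 to 912 in the others.

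The levels of the 10 genes were correlated with each other over the sorted libraries on TPM. Over the 12 sorted libraries the Pearson correlation of log2(TPM + 1) had a median of 0.853 over the 45 pairs of the 10 genes, from 0.643 to 0.970. After each replicate number was centred on its own mean the median was 0.648, from -0.07 for PCNA with RFC3 to 0.869 for POLA1 with POLD3. These are descriptions, since the points share their library, its depth and its RNA composition. Correlations among other genes were not computed for comparison. The 5 other protein-coding genes whose centred profile was most like the mean of the 10, out of 6396 candidates, were CALU (r = 0.938), CHAF1A (0.918), LIG1 (0.912), XRCC1 (0.908) and GLMP (0.905). CHAF1A encodes a subunit of the chromatin assembly factor CAF-1, LIG1 the DNA ligase that seals lagging-strand fragments, and XRCC1 a scaffold of single-strand break repair. Of the 5 only LIG1 is on the gene lists used here. With CALU as the nearest gene, the 5 are not read as a replication set.

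Sorted libraries were then set against bulk. On TPM, 7 of the 10 genes were lower in the sorted libraries and 0 higher (limma, adjusted p under 0.05), where 57.8% of 17174 genes were lower and 23.1% higher. Without bulk replicate 1, 4 were lower, PCNA, RFC2, RFC4 and PRIM1. On rescaled values the direction turned: 7 were higher and 1, PCNA, lower, where 55.1% of 13038 genes were higher and 16.5% lower. Scaling each library by the median ratio gave 4 higher and 3 lower, where 41.1% of all genes were higher and 33.8% lower. The recovered reads tested with limma's voom also gave 4 and 3, beside 39.4% and 40.7%. All 12 sorted libraries were below all 3 bulk libraries for 7 genes on TPM and above them for 0, beside 54.3% and 15.3% of all genes. On rescaled values they were below for 1 gene and above for 7, beside 14.6% and 46.5%. The median over all genes moved from -0.99 on TPM to 0.29, 0.05 and 0.79 log2 units with the median-ratio scaling, the recovered reads and the rescaled values, so each gene is described relative to that median.

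PCNA was lower in the sorted libraries on each of the 4 scales. Its difference was -3.93 ± 0.45 (SE) on log2(TPM + 1) (limma, adjusted p = 5.4e-06), with 72.1 TPM as the sorted mean and 995 ± 18.0 in bulk (SD, n = 3). It was -1.35 ± 0.43 on rescaled values (limma, adjusted p = 0.0148), -2.51 with the median-ratio scaling and -2.69 with the recovered reads. Relative to the median of all genes it lay between -2.94 and -2.14 on the 4 scales.

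RFC2 and PRIM1 came next. Relative to the median of all genes RFC2 lay between -1.16 and -0.46 and PRIM1 between -1.02 and -0.38. Both were lower on TPM, by -2.15 ± 0.25 (SE) and -2.01 ± 0.18 (limma, adjusted p = 7.7e-06 and 6.4e-07). On rescaled values their differences were 0.33 ± 0.26 and 0.41 ± 0.18, and neither passed (limma, adjusted p = 0.260 and 0.0611).

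POLE2, POLE, POLD1, POLA1 and POLD3 lay above the median of all genes on each of the 4 scales. POLE2 was 0.64 to 1.37 above it, POLE 0.47 to 1.26, POLD1 0.31 to 1.07 and POLA1 0.27 to 0.97. Their own direction depended on the scale. POLE differed by -0.52 ± 0.24 (SE) on TPM (limma, adjusted p = 0.0611) and by 2.05 ± 0.21 on rescaled values (limma, adjusted p = 3.3e-06). RFC3 and RFC4 lay close to the median on 3 scales, between -0.25 and 0.12, and 0.70 and 0.51 above it on rescaled values.

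**Figure D4:**
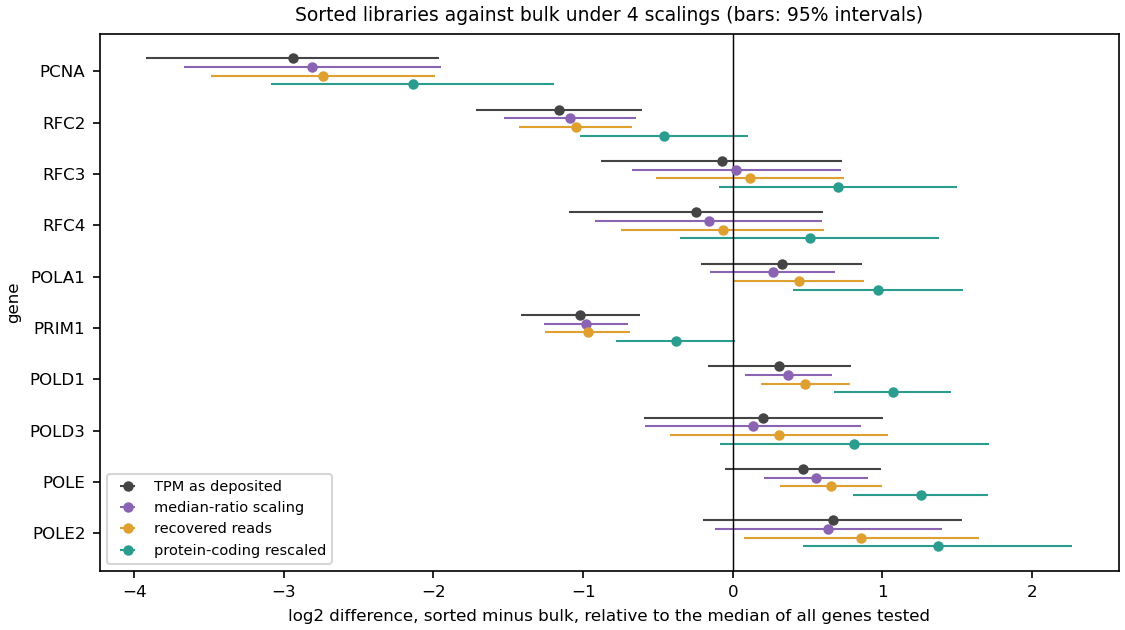
Sorted minus bulk for each gene in log2 units, relative to the median of all genes tested, under 4 scalings (colours) with 95% intervals. PCNA lies between -2.94 and -2.14, RFC2 and PRIM1 lie below 0, and POLE and POLE2 lie above 0 under all 4 scalings.

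Ratios within a library do not depend on its scaling, and they differed between the kinds of library. PCNA made up 78.1% to 78.2% of the summed TPM of the 10 genes in bulk and 23.4% to 43.9% in the sorted libraries. There were 22.5 to 23.2 PCNA transcripts per POLE transcript in bulk and 1.17 to 3.76 in the sorted libraries. POLA1 to PRIM1, the 2 catalytic subunits of the priming enzyme, stood at 0.346 to 0.376 in bulk and at 0.727 to 1.16 in the sorted libraries. Within the clamp loader, RFC3 to RFC2 was 1.19 to 1.32 in bulk and 1.68 to 4.16 in the sorted libraries, and RFC4 to RFC2 was 0.940 to 1.02 and 1.48 to 2.64. None of these ranges overlapped, but ratios of other gene pairs were not computed for comparison. Taken singly on TPM, 54.3% of all genes had all 12 sorted libraries below all 3 bulk libraries, and 15.3% had them above. POLE to POLE2 and POLD1 to POLD3 did overlap, at 3.44 to 4.03 in bulk within 2.37 to 5.29 in the sorted libraries, and at 2.44 to 3.32 within 1.78 to 5.37.

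The gene lengths recovered from the values ran from 1403 bases for PCNA to 15547 for POLA1, far shorter than the genes' spans of 11670 to 303069 bases. Reads from a near-identical copy could be mixed with those of a gene. The processed copies PCNAP1, PCNAP3 and PCNAP4 were at 0 in bulk and reached at most 0.338 TPM in the sorted libraries, and RFC3P1 reached 0.440 TPM. PCNA overlaps the antisense gene PCNA-AS1, and the sources used here do not say whether reads were counted by strand.

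The other 8 subunits of the same complexes gave no gene that passed among the sorted fractions. Against bulk 6 of the 8 were lower on TPM, beside 57.8% of all genes, and 1, POLA2, the accessory subunit of polymerase alpha, was higher, by 1.18 ± 0.22 (SE; limma, adjusted p = 3.7e-04). The lower ones included POLD2, the accessory subunit that joins POLD1 to POLD3, at -2.98 ± 0.18, and RFC1, the large subunit of the clamp loader, at -2.03 ± 0.27. On rescaled values POLA2 at 3.62, POLD4 at 1.48 and PRIM2 at 0.80 were higher, and POLD2 was lower at -0.58. POLE3 and POLE4, histone-fold subunits of polymerase epsilon, differed by -0.30 ± 0.30 and -0.28 ± 0.19 on rescaled values and did not pass. On both scales POLE and POLE2 lay above the median of all genes and POLE3 and POLE4 below it.

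Other genes that work with the clamp were counted by lists, on TPM and then on rescaled values. These counts stand beside 57.8% of all genes lower and 23.1% higher on TPM, and 16.5% lower and 55.1% higher on rescaled values. Of the 3 genes of RPA, which coats single-stranded DNA, 3 and 2 were lower and none higher against bulk, and RPA1 differed by -3.16 and -0.74. Of 5 lagging-strand genes and clamp partners 3 were lower on TPM, and 3 were higher and 2 lower on rescaled values. FEN1, the nuclease that trims flaps, and PCLAF, a PCNA-binding factor, were the lower ones on both, with -0.64 ± 0.16 and -1.09 ± 0.43 on rescaled values, while LIG1 was higher there by 2.62 ± 0.25. Of 5 genes of alternative clamp loaders 2 were higher and 2 lower on TPM, and 4 were higher and none lower on rescaled values, CHTF18 by 3.83 ± 0.33. Of 11 translesion and repair polymerase genes 7 were lower on TPM, and 9 were higher and 1, MAD2L2, lower on rescaled values. Of the 2 genes of the mitochondrial polymerase 1 was lower on TPM, POLG, and both were higher on rescaled values. None of the genes on these lists passed in any comparison among the sorted fractions.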

How the data were processed

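RNA was measured in 15 HepG2 libraries, 12 sorted and 3 bulk. The tools HISAT2, BWA, SAMtools, Trimmomatic and cutadapt and the build hg38 are listed in the submitters' processing notes, each without version or role. Which program and annotation gave the values per gene is not stated there. The deposited files hold log2 values; back-transformed they sum to 1000000 in all 15 libraries, so the authors' values were log2(TPM + 1). The tests had been planned for TPM and were kept.

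TPM was analysed with limma 3.58.1 in R 4.3.3, on log2(TPM + 1) with an intensity trend. Genes needed a mean TPM of 1 or more, and p-values were adjusted after Benjamini and Hochberg, with 0.05 as the threshold. One fit held the 12 sorted libraries, and another all 15 for sorted against bulk. Fold changes on this scale understate the change of low genes. Read counts and gene lengths were recovered from the steps of the deposited values for 50280 of the 50310 genes that were above 0 in 3 or more libraries, with 99.5% of lengths whole within 0.01 base. A recovered unit may be a read or a read pair. The scripts were tested on simulated data. The members and gene lists were chosen with earlier results of these data known. Of the listed genes, counts were taken over whole lists, with values for the other subunits and for genes past the threshold, and the 5 genes nearest to the members' mean centred profile were named among protein-coding genes whose mean TPM was 5 or more. Alternatives changed the pseudocount, filter, scaling, trend, replicate term and libraries. Symbols were matched for 61481 identifiers, and positions, promoters and sequences come from RefSeq tables of GRCh38.p14.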

Additional observations from a re-analysis of the deposited data

How the results depend on the processing

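None of the 10 genes passed among the sorted fractions in any fit without a replicate term, and leaving out each library in turn gave 0 of 10 in all 6 comparisons. The same numbers do not pair the samples by the labels, and each comparison has only 2 such pairs. The differences between replicates 3 and 2 correlated with r from 0.308 to 0.379 between fractions over 17022 genes (15 pairs of fractions). With a replicate block, 0 of 10 passed. With the replicate block and rescaled values together, 1 of 10 passed for the slope over S1 to S4: PCNA at -0.20 (limma, adjusted p = 0.0446, beside 249 of 13490 genes). That fit called 184 genes for S against G1, 40 for G2 against G1 and 173 for any difference, where the fit without these changes called 0, 1 and 3. G2 against G1 fitted on those fractions alone called 106 genes, and G2 against S without a filter 28 where 1 had passed; the other fits on all libraries called 0 to 4. Of 1331 uncalled values of single genes under alternatives, 202 had the other sign.

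The median over the 10 genes moved with the scaling. For S against G1 it was -0.09 on TPM and 0.10, 0.09 and 0.12 with the median-ratio scaling, rescaled values and recovered reads (0.09 with the replicate block as well). For S1 against G1 it was -0.11, then 0.20, 0.17 and 0.24 (0.17 with the block), and for the slope -0.04, then -0.08, -0.06 and -0.08 (-0.06 with the block). Leaving out 1 library moved it from -0.47 to 0.33 for S against G1, -0.63 to 0.30 for S1 against G1, -0.48 to 0.72 for G2 against G1, -0.59 to 0.76 for G2 against S, -0.16 to 0.09 for the slope and 0.48 to 1.03 for the range of fraction means.

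For sorted against bulk the median was -0.92 on TPM, -1.04 to -0.80 without 1 library, and 0.37, 1.55 and 0.26 with the median-ratio scaling, rescaled values and recovered reads. Under these scalings in the same order RFC3 was at 0.32, 1.5 and 0.16, POLA1 at 0.56, 1.76 and 0.49, POLD1 at 0.67, 1.86 and 0.53, POLE at 0.85, 2.05 and 0.71, and POLE2 at 0.93, 2.16 and 0.91. RFC4 was at 0.13 and 1.30 under the first 2, and on rescaled values alone RFC2 was at 0.33, PRIM1 at 0.41 and POLD3 at 1.60. The scalings differ by construction in which genes make up the total. Leaving out 1 library gave 4 to 9 called genes where 7 had passed, with 4 without bulk replicate 1. RFC3 and POLA1 lost their call without any 1 of the bulk libraries (-1.09 to -1.02 and -0.69 to -0.61) and POLD1 without bulk replicate 1 (-0.58). POLD3 passed without replicate 3 of G1, S1, S4 or G2 (-0.91 to -0.87), and POLE without S4 replicate 3, G2 replicate 2 or G2 replicate 3 (-0.62 to -0.42).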

Other observations

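The size of the difference between sorted and bulk libraries varied with gene length. Over 13024 protein-coding genes with a recovered length, split into 5 bins of nearly equal number from the shortest to the longest, the median difference on rescaled values was 0.64, 0.57, 0.74, 0.86 and 1.02 log2 units, and Spearman's rho across genes was 0.151. Over the 10 genes of the replication machinery rho was 0.612, a description over genes that share their libraries. PCNA, with 1403 bases, lay in the shortest bin, and 10.8% of the genes of that bin had a lower difference. RFC2, in the same bin, had 42.5% below it. POLE2 and PRIM1, with 2942 and 3309 bases, lay in bin 2 and had 91.1% and 45.3% of its genes below them. POLE and POLA1, in the longest bin, had 84.5% and 76.7% below them.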
